A study of Rattus norvegicus with 18 samples.

Results

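The genes described here were the long noncoding RNA genes expressed in the liver of male rats. They were the rows of the deposited gene table that are typed lincRNA or lncRNA, have a gene length of at least 200 bases, and reach at least 1 FPKM in at least 3 of the 18 libraries. FPKM is the number of sequenced fragments of a gene scaled to its length and to the size of the library. The members were thus chosen by their FPKM in these same libraries. This gave 130 genes out of 33657 rows in all. The table held 3090 rows typed lincRNA and 0 typed lncRNA, 2797 of them at least 200 bases long, and 2021 lincRNA rows were at 0 FPKM in every library.

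The study asked how feeding plantain changes gene expression in the liver of obese rats, with 6 groups of 3 libraries each. The orlistat group were obese rats given orlistat, a lipase inhibitor used as a drug against obesity, as the positive control of the study. The obese control and the normal control received water. Plantain was given to obese rats at a low, a medium and a high dose, and the amounts are not stated in the labels. All rats were male and 18 weeks old, and all samples were liver; the normal control was healthy and the other 5 groups were obese. The labels name no strain and no diet. Nothing in them says whether 3 libraries stand for 3 animals, and the p-values then reflect library-to-library spread that may be technical. In bulk liver tissue, fewer cells of a type cannot be told apart from less RNA per cell.

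Long noncoding RNAs are transcripts that carry no long open reading frame. Many are spliced and polyadenylated like messenger RNA, some stay in the nucleus and act on chromatin or on splicing, some act on genes next to them, and for most no function is known. Their levels are often low and often restricted to one tissue. They are less well annotated in the rat than in human or mouse, and this shows in the names: 113 of the 130 genes carried only the name of a sequenced clone, 14 a LOC placeholder, and 3 another symbol (Tug1, Rfwd3 and RGD1565989). Rfwd3 carries the symbol of a protein gene, and the symbol RGD1565989 is built on a database number. Among rows whose description names a protein, LOC102556085 is described in the table as similar to a sodium/nucleoside cotransporter and LOC100912578 as similar to a mitochondrial stress protein. These rows were kept, since the deposited type is what the rule reads.

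Of 50 symbols of well-known long noncoding RNAs looked for in the table, 1 was found, Tug1. Of 27 symbols of genes that host small nucleolar RNAs in their introns, 8 were found and 7 passed the level filter. All 8 are typed protein coding in the table, so none of them is among the 130. RefSeq held 9 of the 130 genes under the same symbol, 8 as lncRNA and 1, Rfwd3, as protein coding. The promoter windows of Tug1 and LOC102548225, from 250 bases before to 50 bases after the start, are shown because both are lncRNA genes in RefSeq and both were called between the obese and the normal control below. They are RefSeq sequences of the build GRCr8, at chr14:82750485-82750784 on the minus strand and at chr18:71602323-71602622 on the plus strand. Capitals mark the letters CCAAT in Tug1 and CACGTG, the E-box, in LOC102548225.
Tug1: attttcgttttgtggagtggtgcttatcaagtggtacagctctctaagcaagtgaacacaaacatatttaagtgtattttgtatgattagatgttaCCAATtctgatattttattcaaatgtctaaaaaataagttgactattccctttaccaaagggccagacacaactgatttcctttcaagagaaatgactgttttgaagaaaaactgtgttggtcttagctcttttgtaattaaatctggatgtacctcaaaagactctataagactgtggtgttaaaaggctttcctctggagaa
LOC102548225: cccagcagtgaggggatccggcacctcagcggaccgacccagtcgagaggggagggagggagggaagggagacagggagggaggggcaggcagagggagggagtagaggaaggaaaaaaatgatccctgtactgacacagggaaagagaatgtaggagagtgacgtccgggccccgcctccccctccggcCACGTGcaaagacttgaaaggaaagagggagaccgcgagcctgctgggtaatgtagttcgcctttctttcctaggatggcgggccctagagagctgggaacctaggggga
Among 33469 RefSeq promoters of this length, 37.5% held ATTGG or its reverse complement CCAAT and 6.42% held CACGTG. These motifs were chosen after the sequences were read, and a match is a description of letters, not a binding site. The Tug1 window had 1 CpG and 34% G or C, and the LOC102548225 window had 13 CpG and 61.3% G or C. The median over all promoters was 7 CpG. RefSeq gives LOC102548225 a second start, whose window at chr18:71602651-71602950 had 14 CpG and 54.7% G or C and held CCAAT but not CACGTG.

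The 130 genes were mostly of low level. The mean over the 6 group means ran from 0.36 to 1655 FPKM with a median of 1.72 FPKM, against a median of 6.32 FPKM over the 10655 protein-coding genes tested. Of the 130, 10 averaged at least 10 FPKM, 45 lay from 2 to 10 FPKM and 75 lay under 2 FPKM. Their gene lengths ran from 211 to 5459 bases with a median of 882 bases, against a median of 2231 bases in the protein-coding genes. Low level and short length together leave few reads: the median gene had 34.4 reads per library. The level filter passed 4.65% of the lincRNA rows of at least 200 bases and 47.9% of the protein-coding rows.

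**Figure D1:**
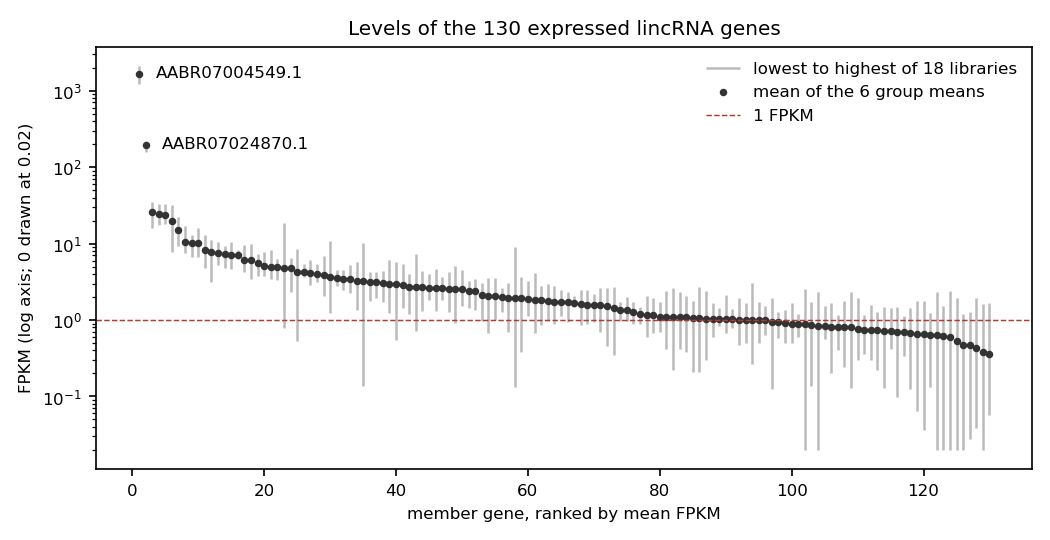
FPKM of the 130 lincRNA genes on a log axis, ranked by the mean of the 6 group means. Points are that mean and grey lines run from the lowest to the highest of the 18 libraries. AABR07004549.1 at 1655 FPKM and AABR07024870.1 stand above all others, and 75 genes average under 2 FPKM.

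Of the 130 genes, 50 reached 1 FPKM in all 18 libraries, 49 in 7 to 17 and 31 in 3 to 6. At the edge of the rule, the 11 genes with 3 such libraries averaged 0.471 to 0.753 FPKM, and the 8 lincRNA genes left out with 2 such libraries averaged 0.279 to 0.635 FPKM. AABR07030091.1, AABR07035780.1 and AABR07054753.1 reached 1 FPKM in obese control libraries alone, and AABR07007717.3 in orlistat libraries alone. Such genes had to differ between groups to be chosen, so counts over the 130 are also given for the 50 that reached 1 FPKM throughout.

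The libraries held 16.6 to 26.2 M recovered reads each. The 130 genes took 0.279 to 0.292% of them in orlistat libraries and 0.292 to 0.298% in the obese control. They took 0.279 to 0.283% at the low dose, 0.239 to 0.251% at the medium dose, 0.215 to 0.217% at the high dose and 0.21 to 0.213% in the normal control. Most of this share came from AABR07004549.1 and AABR07024870.1. Without them the share was 0.0473 to 0.0573% over all 18 libraries. All 14 hepatocyte markers looked for were in the table and passed the level filter, with a summed FPKM between 84210 and 103400 over the libraries. The total that the authors used for scaling was 0.966 to 1.05 times the recovered reads, a factor that no source used here explains. It differed by group: 0.971 to 0.980 in the obese control, 0.966 to 0.986 at the low dose and 0.998 to 1.023 at the medium dose. It was 1.025 to 1.030 at the high dose, 1.023 to 1.047 with orlistat and 0.998 to 1.019 in the normal control. FPKM is lower where this factor is higher, so the factor enters the comparisons between groups.

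Differences below come from limma over all 11945 genes tested, and a gene was called where its adjusted p was under 0.05. AABR07004549.1 was the most abundant lincRNA gene by far. It had 1842, 1945 and 1767 FPKM in orlistat libraries, against 2068, 2088 and 2022 FPKM in the obese control. At the low dose it had 1934, 2000 and 1936 FPKM, at the medium dose 1653, 1498 and 1487 FPKM, and at the high dose 1295, 1265 and 1303 FPKM. The normal control had 1229, 1219 and 1235 FPKM. All libraries of the high dose and of the normal control lay below every library of the other 4 groups. The level at the high dose was 0.68 ± 0.04 lower than in the obese control on the log2(FPKM + 1) scale (limma, SE, adjusted p = 5.2e-10), and at the medium dose 0.41 ± 0.04 lower (adjusted p = 2.3e-07). The difference at the low dose was -0.07 ± 0.04 (adjusted p = 0.14). The obese control was 0.75 ± 0.04 higher than the normal control (adjusted p = 9.2e-11). With orlistat the difference was -0.15 ± 0.04 (adjusted p = 0.0023), but it was 0.02 and not called after scaling to TPM, where every library has the same total per length (adjusted p = 0.63), and -0.03 after quantile normalization (adjusted p = 0.46).

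AABR07004549.1 lies at chr1:147422779-147435897 on the minus strand, in the coordinates of the table, whose build is not named. The region also holds cytochrome P450 genes, which encode enzymes that oxidize drugs, steroids and fatty acids in the liver. One of them, Cyp2c7, lies 618 kb away on the same strand. It was singled out after its values were seen, since its FPKM was close to that of AABR07004549.1 in every group. Cyp2c7 averaged 1996 ± 19.4 FPKM with orlistat and 2041 ± 27 FPKM in the obese control. It averaged 1843 ± 34.5 FPKM at the low dose, 1377 ± 19.3 FPKM at the medium dose, 1281 ± 53.9 FPKM at the high dose and 1226 ± 12.3 FPKM in the normal control (SD, n = 3 each). The ratio of AABR07004549.1 to Cyp2c7 was 0.892 to 1.19 over the 18 libraries, with a median of 1.02. Per step from the obese control to the high dose, the level fell by 0.24 ± 0.01 for AABR07004549.1 and by 0.24 ± 0.01 for Cyp2c7 on the log2 scale (adjusted p = 1.5e-10 and 9.7e-13). Whether both rows draw on the same reads was not tested, and reads of similar sequences cannot be told apart from this table.

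A second lincRNA gene of the same region, AABR07004572.1, ran the other way. It lies at chr1:147696656-147700221 on the plus strand, 13.7 kb before the start of Cyp2c6v1, another P450 gene. It had 2.61, 2.15 and 1.96 FPKM with orlistat and 1.67, 1.92 and 1.65 FPKM in the obese control. The low dose had 1.5, 1.48 and 1.25 FPKM, the medium dose 2.94, 3.36 and 2.53 FPKM, the high dose 3.31, 3.92 and 3.99 FPKM, and the normal control 5.34, 5.57 and 6.09 FPKM. All libraries of the medium and the high dose lay above those of the obese control and below those of the normal control. The obese control was 1.28 ± 0.09 lower than the normal control on the log2 scale (limma, adjusted p = 8.3e-09), the widest such gap downward among the 130. The high dose was 0.79 ± 0.09 higher than the obese control (adjusted p = 3.1e-06) and the medium dose 0.52 ± 0.09 higher (adjusted p = 0.00027). Cyp2c6v1 differed in the opposite direction: it averaged 352 ± 4.26 FPKM in the obese control and 270 ± 6.16 FPKM in the normal control (SD, n = 3 each), a log2 difference of 0.38 ± 0.04 (adjusted p = 1.3e-06).

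**Figure D2:**
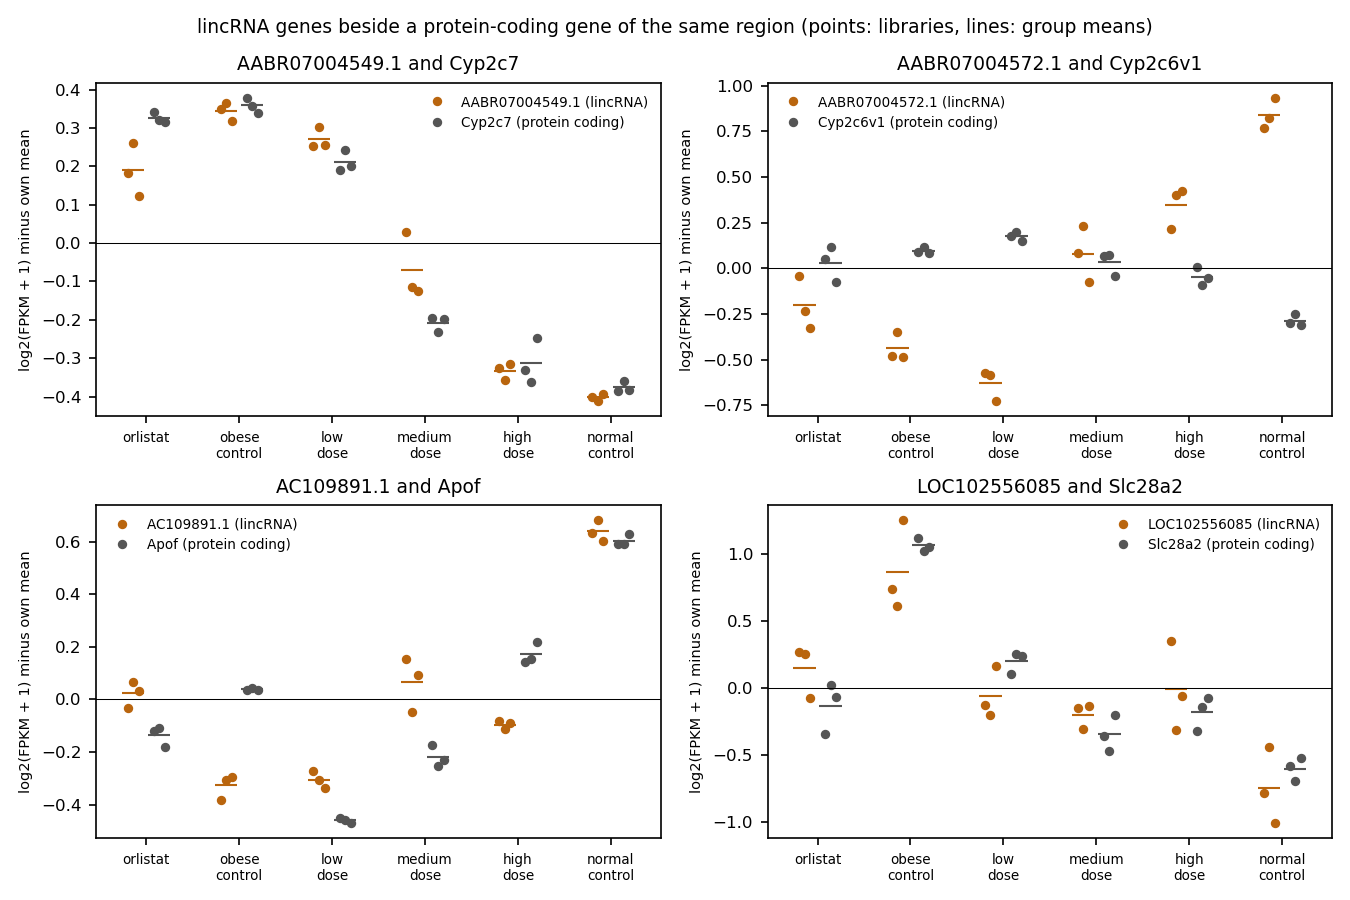
log2(FPKM + 1) minus the gene's own mean in each of the 18 libraries (points) with group means (lines), for 4 lincRNA genes and a protein-coding gene of the same region. AABR07004549.1 and Cyp2c7 are both highest in the obese control and lowest in the normal control, AABR07004572.1 and Cyp2c6v1 run in opposite directions, AC109891.1 and Apof are both highest in the normal control, and LOC102556085 and Slc28a2 are both highest in the obese control.

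The obese control was compared with the normal control. The labels name no diet and no strain, so a part of obesity cannot be told apart from a part of these. Of the 130 genes, 64 passed an adjusted p of 0.05, 41 higher and 23 lower in the obese control; over all 11945 genes tested, 55.1% passed, 26.7% higher and 28.4% lower. Past 1 on the log2 scale were 11 of the 130, and 3.07% of all genes tested. The 2 groups did not overlap for 68 of the 130 and for 62.5% of all genes tested. The median log2 difference was 0.17 over the 130 genes and -0.000272 over all genes tested. Of the 50 genes that reached 1 FPKM throughout, 35 passed, 20 higher and 15 lower, and 3 were past 1 on the log2 scale. Of all 9716 genes that did so, 60.8% passed, 28.5% higher and 32.29% lower, and 249 were past 1. After scaling to TPM, 32 of the 130 were higher and 27 lower. With limma's voom on recovered reads 37 were higher and 24 lower, so the split leans on the scaling. How all genes split under these settings is not given here. Under TPM the median of all genes shifted by -0.11 here.

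The widest rise was in AABR07068044.2, a clone-named gene of 426 bases at chr9:79323408-79325098 on the minus strand. It had 9.06, 7.67 and 5.28 FPKM in the obese control, while all 15 other libraries lay between 0.132 and 1.68 FPKM. The obese control was 2.31 ± 0.21 higher than the normal control on the log2 scale (limma, adjusted p = 1.9e-07). AABR07068043.1, at chr9:79293740-79309691, lies 13.7 kb from it on the same strand and had the same shape. It had 2.94, 3.01 and 2.88 FPKM in the obese control, against 0.363, 0.814 and 0.609 FPKM in the normal control. It reached 1 FPKM in 5 libraries, 3 of them of the obese control, so it passed the level filter through that group and had to be high there. Its log2 difference of 1.31 is a description. AABR07004397.3, on chromosome 1, averaged 9.53 FPKM in the obese control and 1.82 FPKM in the normal control, a rise of 1.9 ± 0.19 (adjusted p = 5.2e-07). These 3 genes are short or low, with 17.4, 22.4 and 36.2 reads per library on average.

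Against the same obese control, the 3 genes were lower in all 4 treated groups. AABR07068044.2 differed by -2.46 ± 0.21 with orlistat, and by -2.04 ± 0.21, -1.84 ± 0.21 and -2.15 ± 0.21 at the low, medium and high dose. AABR07068043.1, again as a description, differed by -1.4 ± 0.11 with orlistat and by -1.34 ± 0.11, -1 ± 0.11 and -1.46 ± 0.11 at the rising doses. AABR07004397.3 differed by -1.89 ± 0.19 with orlistat and by -1.37 ± 0.19, -1.29 ± 0.19 and -1.82 ± 0.19 at the rising doses. The adjusted p-values of AABR07068044.2 and AABR07004397.3 in these comparisons ran from 1.2e-07 to 5.3e-05 in limma. All of these comparisons, and the one with the normal control, share the same 3 obese control libraries, so a level that is high there enters each of them.

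LOC102556085 was the next widest rise in the obese control that lies beside a gene of known function. It sits 3.14 kb after the end of Slc28a2, which encodes a sodium-coupled transporter of purine nucleosides, on the same strand. It had 4.79, 4.29 and 7.25 FPKM in the obese control, against 1.01, 1.55 and 0.721 FPKM in the normal control, a rise of 1.61 ± 0.19 (limma, adjusted p = 3.5e-06). Slc28a2 averaged 27.5 ± 0.962 FPKM in the obese control and 8 ± 0.529 FPKM in the normal control (SD, n = 3 each), a rise of 1.67 ± 0.09 (adjusted p = 3.7e-10). Both were lower than the obese control in the 4 treated groups, LOC102556085 by 0.72 to 1.06 and Slc28a2 by 0.86 to 1.41 on the log2 scale. No source used here gives the counting rule, and reads running past the end of Slc28a2 cannot be told apart from a transcript of LOC102556085.

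AABR07030086.1 averaged 4.51 FPKM in the obese control and 1.09 FPKM in the normal control, a rise of 1.44 ± 0.23 (limma, adjusted p = 7.8e-05), and is 214 bases long. Its level with orlistat, 4.75 FPKM, and at the medium dose, 4.75 FPKM, was not told apart from the obese control (adjusted p = 0.86 and 0.8). AABR07054753.1 averaged 1.8 FPKM in the obese control and 0.0579 FPKM in the normal control, where 2 libraries were at 0, with 5.3 reads per library on average. It was chosen through the obese control libraries alone, so this difference was fixed by the choice.

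AC109891.1 was the second widest fall in the obese control after AABR07004572.1. It starts 0.534 kb from Apof, the gene of the plasma apolipoprotein F, on the opposite strand, so that both run away from a common region. It had 3.43, 3.68 and 3.71 FPKM in the obese control, against 7.96, 8.26 and 7.77 FPKM in the normal control, a fall of 0.97 ± 0.05 (limma, log2 difference -0.97, adjusted p = 1.4e-10). Apof averaged 241 ± 0.817 FPKM in the obese control and 357 ± 5.11 FPKM in the normal control (SD, n = 3 each), a log2 difference of -0.56 ± 0.02 (adjusted p = 2.1e-11). With orlistat and at the medium dose AC109891.1 was higher than the obese control (0.35 ± 0.05 and 0.39 ± 0.05), where Apof was lower (-0.17 ± 0.02 and -0.26 ± 0.02). At the low dose AC109891.1 differed by 0.02 ± 0.05 and Apof by -0.5 ± 0.02. At the high dose both were higher than the obese control, AC109891.1 by 0.23 ± 0.05 and Apof by 0.13 ± 0.02 (adjusted p = 0.00099 and 0.00033).

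LOC102548225, whose promoter is printed above, had 0.637, 0.691 and 0.704 FPKM in the obese control, against 1.68, 1.65 and 1.57 FPKM in the normal control. The groups did not overlap, and the log2 difference was -0.65 ± 0.12 (limma, adjusted p = 0.00019). Tug1, a nuclear and cytoplasmic RNA found to be needed for the maturation of photoreceptors in the rodent retina, was the single well-known lncRNA in the set. It had 1.59, 1.66 and 1.54 FPKM with orlistat, against 2.06, 2.08 and 1.98 FPKM in the obese control. It had 1.62, 1.47 and 1.57 FPKM at the low dose, 1.52, 1.48 and 1.53 FPKM at the medium dose, 1.69, 1.5 and 1.7 FPKM at the high dose, and 1.6, 1.62 and 1.69 FPKM in the normal control. All 3 obese control libraries lay above the other 15. The obese control was 0.21 ± 0.05 higher than the normal control (limma, adjusted p = 0.0027). After scaling to TPM this difference was 0.15 (adjusted p = 0.055), and those of orlistat and of the high dose with the obese control were -0.14 and -0.11 (adjusted p = 0.066 and 0.14), so these calls of Tug1 end with the scaling. Its neighbour Morc2, which starts 1.5 kb away on the opposite strand and encodes a chromatin ATPase, averaged 2.66 ± 0.116 FPKM in the obese control and 2.14 ± 0.148 FPKM in the normal control (SD, n = 3 each).

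Markers of other liver cells moved in this comparison as well. All 12 tested markers of Kupffer cells, the resident macrophages, were higher in the obese control, with a summed FPKM of 337 to 349 in the obese control and 206 to 209 in the normal control. Of 10 endothelial markers 7 were higher and 0 lower, with sums of 89.3 to 90.4 FPKM in the obese control and 67.3 to 69.0 FPKM in the normal control. Of 11 stellate cell and matrix markers 5 were higher and 1 lower, with sums of 72.8 to 73.7 FPKM in the obese control and 58.2 to 60.3 FPKM in the normal control. Of 8 red blood cell markers 5 were higher and 0 lower, of 7 lymphocyte markers 4 and 0, and the 1 bile duct marker tested was lower. Of the 7 small nucleolar RNA hosts 2 were higher and 1 lower. The part of these cells in the lincRNA differences was not tested.

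**Figure D3:**
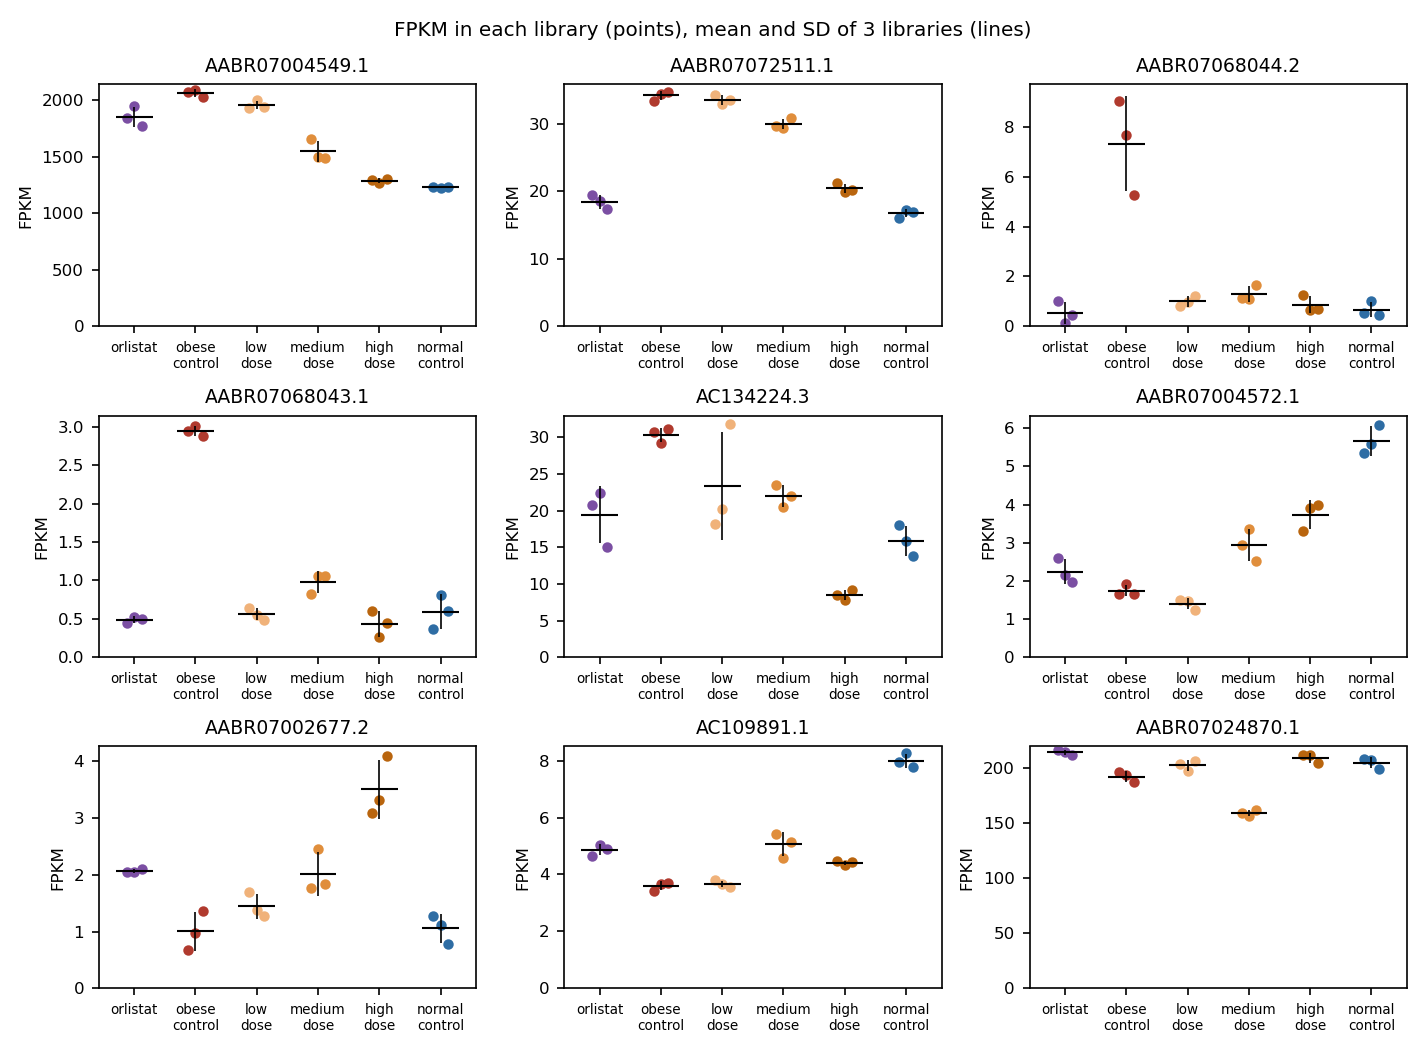
FPKM of 9 lincRNA genes in each library (points) with the mean and SD of the 3 libraries of a group (lines), from orlistat on the left to the normal control on the right. AABR07068044.2 and AABR07068043.1 are high in the 3 obese control libraries, AABR07004549.1 and AABR07072511.1 step down along the doses, and AABR07002677.2 steps up to 4.09 FPKM.

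Orlistat was compared with the obese control as the drug that the study used for reference. With orlistat 64 of the 130 genes passed the test, 23 higher and 41 lower; 51.8% of all genes tested passed, 26.2% higher and 25.6% lower. Of the 50 genes at 1 FPKM throughout, 37 passed, 15 higher and 22 lower, and 2 were past 1 on the log2 scale. Of all 9716 genes at that level, 57.1% passed, 29.06% higher and 28.01% lower, and 117 were past 1. The balance between directions in the 130 depended on the scaling. After TPM 30 were higher and 25 lower, and with voom on recovered reads 26 higher and 30 lower. The median of all genes shifted by 0.14 under TPM, and the matching splits of all genes are not given here. Past 1 on the log2 scale were 5 of the 130 (1.57% of all genes tested), with no overlap between groups for 63 (58.2% of all genes tested). The 3 obese-high genes given above were the widest falls.

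AABR07072236.1 was the next. It is a single stretch of 1369 bases at chr11:61994181-61995549 on the minus strand, inside Gramd1c on the opposite strand. It had 9.36, 10.5 and 9.57 FPKM with orlistat, against 21.6, 21.6 and 19.9 FPKM in the obese control, a fall with a log2 difference of -1.02 ± 0.07 (limma, adjusted p = 4.8e-09). It was lower at each dose too, with differences of -0.41 ± 0.07, -0.65 ± 0.07 and -0.99 ± 0.07 at the low, medium and high dose. It averaged 20.2 FPKM in the normal control, and the difference between obese and normal control was 0.05 ± 0.07 (adjusted p = 0.52). So its treated levels were below both controls. Gramd1c, which encodes a sterol transfer protein, averaged 6.11 ± 0.345 FPKM with orlistat and 5.79 ± 0.0443 FPKM in the obese control (SD, n = 3 each). The log2 difference was 0.07 ± 0.05 (limma, adjusted p = 0.29), and 0.09 ± 0.05 at the low dose (adjusted p = 0.2). Gramd1c was called higher at the medium and high dose, by 0.32 ± 0.05 and 0.15 ± 0.05 (adjusted p = 9.5e-05 and 0.016). Between the obese and the normal control its log2 difference was -0.41 ± 0.05 (adjusted p = 4.5e-06). No source used here says whether counting used the strand, so reads of the overlapping genes may not be told apart. AC115255.1, on chromosome 1, was below both controls as well: it averaged 7.91 FPKM with orlistat, 12.5 FPKM in the obese control, 8.82, 7.07 and 8.66 FPKM at the low, medium and high dose, and 15.2 FPKM in the normal control.

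Among the genes higher with orlistat, AABR07044551.1 had 3.92, 4.12 and 3.36 FPKM with orlistat, against 1.91, 2.31 and 1.78 FPKM in the obese control. Its rise was 0.68 ± 0.09 on the log2 scale (limma, adjusted p = 1.5e-05), and its levels were also higher than the obese control at the low, medium and high dose, by 0.37 ± 0.09, 0.55 ± 0.09 and 0.4 ± 0.09. The call at the low dose was lost with voom on recovered reads (adjusted p = 0.087). AABR07050423.1 averaged 0.7 ± 0.16 higher with orlistat (adjusted p = 0.0018) and 0.81 ± 0.16 higher at the high dose (adjusted p = 0.0006). AABR07002677.2 lies 0.347 kb before Exoc3l2, a gene related to the exocyst complex of vesicle transport, on the same strand. It had 2.05, 2.05 and 2.11 FPKM with orlistat, against 0.673, 0.969 and 1.37 FPKM in the obese control, a rise of 0.63 ± 0.13 (adjusted p = 0.00085).

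AABR07051308.1 shows what a call with 3 libraries can rest on. It had 5.97, 10.2 and 6.01 FPKM with orlistat, against 5.88, 0.137 and 0.197 FPKM in the obese control. It had 0.228, 4.76 and 5.98 FPKM at the low dose, 0.138, 0.165 and 0.208 FPKM at the medium dose, 1.62, 4.37 and 5.75 FPKM at the high dose, and 0.979, 0.267 and 5.15 FPKM in the normal control. Libraries of the obese control, of the low dose and of the normal control lay far apart within their group, while the medium dose libraries were all low and the orlistat libraries all high. The orlistat difference of 1.96 ± 0.74 (limma, adjusted p = 0.038) was lost without replicate 2 or 3 of the obese control (1.51 and 1.55, adjusted p = 0.15 and 0.14) and without any 1 of the 3 orlistat libraries (adjusted p = 0.062, 0.11 and 0.062). Its within-group SD on the log2 scale was 1.01, the widest of the 130 genes, where the median was 0.18. The next widest was that of LOC100912578 at 0.91, which ran from 0.792 to 18.4 FPKM and is named after its values were seen.

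The doses of plantain were compared with the obese control one by one. At the low dose 34 of the 130 genes passed, 10 higher and 24 lower (33.0% of all genes tested, 18.3% higher and 14.8% lower). At the medium dose 42 passed, 17 higher and 25 lower (41.9% of all genes tested, 21.8% higher and 20.1% lower). At the high dose 62 passed, 19 higher and 43 lower (51.9% of all genes tested, 26.6% higher and 25.3% lower). Of the 50 genes at 1 FPKM throughout, 21, 25 and 34 passed at the rising doses, against 36.5, 46.3 and 56.7% of all genes at that level. Those 50 split into 6 higher and 15 lower at the low dose, 10 and 15 at the medium dose, and 10 and 24 at the high dose, with 1, 1 and 3 past 1 on the log2 scale. Of all 9716 genes at that level, 20.43, 24.13 and 29.45% were higher and 16.03, 22.19 and 27.25% lower at the rising doses. Of the 9716, 40, 71 and 124 were past 1. Past 1 on the log2 scale were 4, 5 and 6 of the 130 at the rising doses, against 0.712, 1.16 and 1.81% of all genes tested. The groups did not overlap for 55, 57 and 68 of the 130, against 44.8, 49.2 and 57.8% of all genes tested. After TPM scaling the split of the 130 at the low dose was 11 higher and 24 lower, at the medium dose 24 and 21, and at the high dose 29 and 32. The split of all genes under TPM is not given here, so these counts describe the 130 alone. Over the 130 genes the median log2 difference was -0.05, -0.03 and -0.12 at the rising doses. Over all genes tested it was 0.01, 0.0016 and -0.0022. The medians of the 130 after TPM scaling are not given here.

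**Figure D4:**
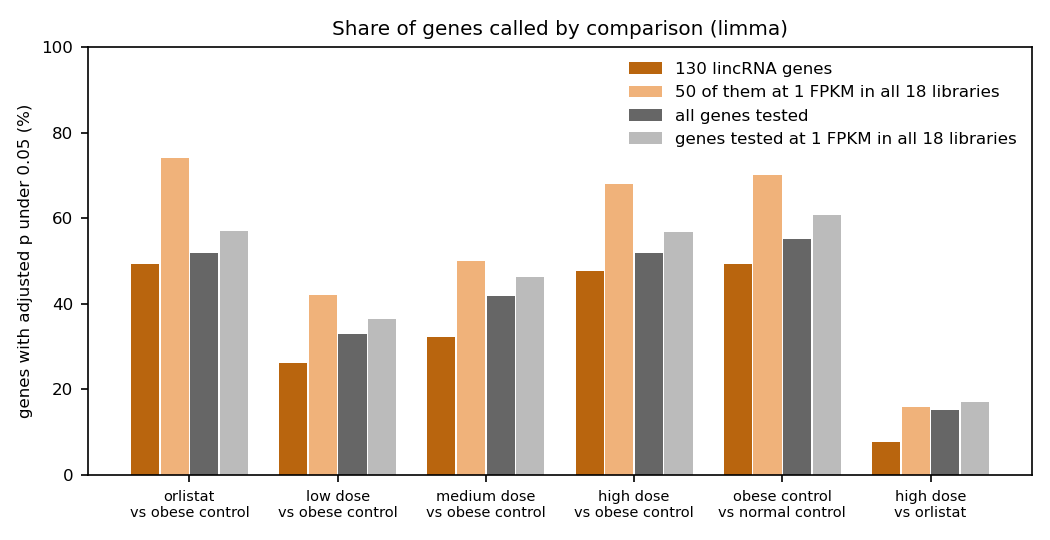
Share of genes with an adjusted p under 0.05 in limma for each of 6 comparisons. Bars stand for the 130 lincRNA genes, the 50 of them at 1 FPKM in all 18 libraries, all 11945 genes tested, and the 9716 of those at 1 FPKM in all 18 libraries; with orlistat the bars are at 49.2, 74, 51.8 and 57.1%.

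A straight line fitted through obese control, low, medium and high dose, 1 step apart each, gave 64 genes, 23 rising and 41 falling (52.5% of all genes tested, 26.5% rising and 26.0% falling). After TPM scaling 32 of the 130 rose and 28 fell, again without the split of all genes beside it. AABR07072511.1, at chr16:49163529-49167325 on the plus strand, was next to AABR07004549.1 by p among the falling genes. It had 33.5, 34.5 and 34.7 FPKM in the obese control, 34.3, 32.9 and 33.5 FPKM at the low dose, 29.6, 29.5 and 30.9 FPKM at the medium dose, and 21.3, 19.9 and 20.2 FPKM at the high dose. Orlistat libraries had 19.4, 18.6 and 17.4 FPKM and normal control libraries 16.1, 17.2 and 16.9 FPKM. The low dose overlapped the obese control, and the medium and high dose lay apart from it and from each other. The change per step was -0.23 ± 0.01 on the log2 scale (limma, adjusted p = 4.3e-10), and the 3 doses differed among themselves (F-test, adjusted p = 5.1e-09). Over the 6 groups it had the smallest p of the 130 genes (F-test, adjusted p = 3.5e-12). Its nearest protein-coding gene, Helt, 18.2 kb away, is a transcription factor gene of the developing brain and was not tested for lack of level.

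The genes most like AABR07072511.1 over the 18 libraries were AABR07071969.1, AABR07013746.1 and AABR07026534.3, with Spearman rho of 0.876, 0.866 and 0.835; these values share libraries and groups and describe likeness only. AABR07013746.1 averaged 1.86 FPKM with orlistat, 4.26 FPKM in the obese control, 3.07, 2.76 and 1.72 FPKM at the rising doses, and 1.64 FPKM in the normal control. It fell by 0.3 ± 0.02 per step (limma, log2 difference -0.3, adjusted p = 2.5e-08). AC109891.1 was the least like, with a rho of -0.781.

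AABR07002677.2 rose along the doses. It had 0.673, 0.969 and 1.37 FPKM in the obese control, 1.69, 1.38 and 1.27 FPKM at the low dose, 1.76, 2.45 and 1.83 FPKM at the medium dose, and 3.1, 3.33 and 4.09 FPKM at the high dose. Only the low dose overlapped the obese control among these. The change per step was 0.38 ± 0.04 (limma, adjusted p = 1.5e-06) and the high dose was 1.18 ± 0.13 higher than the obese control (adjusted p = 2.1e-06). The normal control, at 1.06 ± 0.253 FPKM, was not told apart from the obese control, at 1 ± 0.35 FPKM (SD, n = 3 each; adjusted p = 0.8). Exoc3l2 averaged 2.64 ± 0.386 FPKM at the high dose and 1.96 ± 0.238 FPKM in the obese control (SD, n = 3 each), a log2 difference of 0.3 ± 0.09 (adjusted p = 0.015).

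The 3 genes AC134224.1, AC134224.2 and AC134224.3 lie in a row at chr1:221151827-221158792 on the minus strand, with gaps of 1.28 and 1.19 kb. AC134224.3 had 20.8, 22.5 and 15 FPKM with orlistat, against 30.7, 29.2 and 31.1 FPKM in the obese control. It had 18.1, 20.2 and 31.8 FPKM at the low dose, 23.4, 20.5 and 22 FPKM at the medium dose, 8.5, 7.78 and 9.21 FPKM at the high dose, and 18, 15.9 and 13.8 FPKM in the normal control. The high dose lay below every other library. It was 1.72 ± 0.17 below the obese control on the log2 scale (limma, log2 difference -1.72, adjusted p = 4.9e-07). AC134224.1 and AC134224.2 differed there by -1.16 ± 0.09 and -0.97 ± 0.1 (adjusted p = 2.1e-08 and 7.3e-07). At the low dose 1 library of AC134224.3 stood at the level of the obese control, and the difference of -0.4 ± 0.17 was not called (adjusted p = 0.08). Its medium dose call (adjusted p = 0.042) was lost without replicate 1, 2 or 3 of either group compared, with adjusted p between 0.055 and 0.12.

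Not all genes followed the order of the doses. An F-test over the 3 doses gave 46 of the 130 genes (38.4% of all genes tested), and 29 of the 50 genes at 1 FPKM throughout (42.7% of all genes at that level). AABR07024870.1, at chr16:20231641-20236318 and the second most abundant of the 130, had 216, 214 and 211 FPKM with orlistat, against 196, 194 and 187 FPKM in the obese control. It had 203, 197 and 206 FPKM at the low dose, 159, 156 and 161 FPKM at the medium dose, 211, 212 and 204 FPKM at the high dose, and 208, 207 and 199 FPKM in the normal control. The medium dose libraries lay below all 15 others. The medium dose was 0.27 ± 0.02 below the obese control (limma, log2 difference -0.27, adjusted p = 2.9e-07) and the high dose 0.12 ± 0.02 above it (adjusted p = 0.00064), with no slope over the steps (0 ± 0.01, adjusted p = 0.85). AABR07016572.1 was lower at the low dose. It had 4.79, 5.45 and 5.35 FPKM at the low dose, against 7.47, 8.05 and 7.44 FPKM in the obese control, a log2 difference of -0.48 ± 0.05 (adjusted p = 3.6e-06). AABR07052458.1 had 16.7, 14 and 13 FPKM at the medium dose, against 9.18, 7.57 and 9.56 FPKM in the obese control, a rise of 0.67 ± 0.09 (adjusted p = 3.4e-05).

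Cell markers differed from the obese control at the doses too, not always in the order of the doses. Of 12 Kupffer cell markers 11 were higher and 0 lower at the low dose, and 0 higher and 10 lower at the medium dose. At the high dose 1 was higher and 9 were lower. Their sums were 427 to 438 FPKM at the low, 283 to 293 FPKM at the medium and 291 to 297 FPKM at the high dose. The obese control had 337 to 349 FPKM. Of 10 endothelial markers 9 were higher and 0 lower than the obese control at each dose, and 9 higher and 1 lower with orlistat. Their sums were 125 to 154 FPKM over the treated groups, against 89.3 to 90.4 FPKM in the obese control. Of 11 stellate cell and matrix markers 7, 5 and 4 were lower at the rising doses and 0, 1 and 1 higher. Of 8 red blood cell markers 5, 4 and 5 were lower and 0, 2 and 1 higher, and of 14 hepatocyte markers 5, 9 and 8 were lower and 2, 3 and 3 higher. With orlistat 3 Kupffer cell markers were higher and 1 lower, 3 stellate cell and matrix markers higher and 2 lower, 1 red blood cell marker higher and 3 lower, and 6 hepatocyte markers higher and 8 lower. Of 7 lymphocyte markers 1, 0 and 0 were higher and 1, 1 and 1 lower at the rising doses. With orlistat 1 lymphocyte marker was higher and 0 lower. The 1 bile duct marker tested was higher at each dose and with orlistat. The part of all these markers in the lincRNA differences was not tested.

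**Figure D5:**
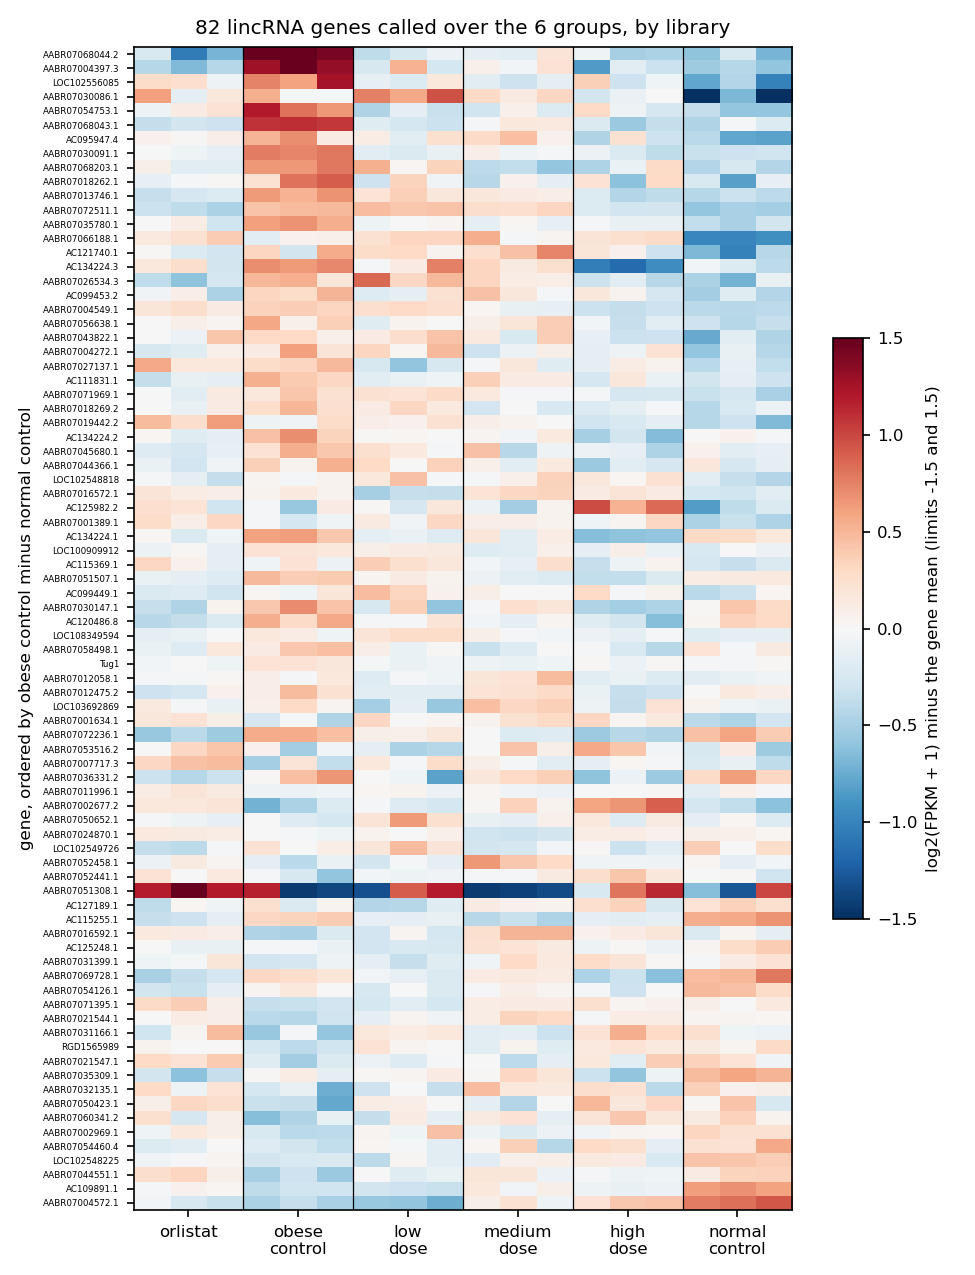
log2(FPKM + 1) minus the gene's own mean in each of the 18 libraries, for the 82 lincRNA genes with an adjusted p under 0.05 over the 6 groups, ordered by the obese control minus the normal control. The 3 obese control columns are darkest red at the top, and AABR07051308.1 changes from library to library within several groups.

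The high dose was also set against orlistat. Of the 130 genes, 10 passed, 4 higher and 6 lower at the high dose (15.1% of all genes tested, 8.45% higher and 6.67% lower). Of the 50 genes at 1 FPKM throughout, 8 passed, 2 higher and 6 lower. Of all genes at that level 17% passed, 9.6% higher and 7.37% lower. Past 1 on the log2 scale was 1 of the 130 (0.285% of all genes tested), with no overlap between groups for 28 (30.6% of all genes tested). AC134224.3 averaged 8.5 ± 0.716 FPKM at the high dose and 19.4 ± 3.89 FPKM with orlistat (SD, n = 3 each), a log2 difference of -1.09 ± 0.17 (limma, adjusted p = 0.0003). AABR07004549.1 was 0.52 ± 0.04 lower (adjusted p = 7.3e-08) and AC134224.1 0.53 ± 0.09 lower (adjusted p = 0.00046). AABR07019442.2 averaged 6.82 FPKM at the high dose and 11.6 FPKM with orlistat, a difference of -0.68 ± 0.11 (adjusted p = 0.00038). AABR07004572.1 was 0.55 ± 0.09 higher at the high dose (adjusted p = 0.00055). AABR07002677.2 was 0.55 ± 0.13 higher (adjusted p = 0.0095), a call lost without replicate 3 of the high dose (0.46, adjusted p = 0.051). AABR07072511.1 was 0.14 ± 0.04 higher (adjusted p = 0.022), a call lost without replicate 1 of the high dose or replicate 3 of orlistat (0.11 and 0.1, adjusted p = 0.1 and 0.11). In the same comparison 11 of 12 Kupffer cell markers were lower and 1 higher at the high dose, with sums of 291 to 297 FPKM at the high dose and 353 to 373 FPKM with orlistat. Of 11 stellate cell and matrix markers 5 were lower and 1 higher, and of 10 endothelial markers 3 were higher. Their part in these differences was not tested. A gene that did not pass here is not thereby shown to have equal levels in both groups.

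Over the 6 groups together, 82 of the 130 genes varied by the F-test, against 72.1% of all genes tested. Of the 50 genes at 1 FPKM throughout, 44 did so, against 77.9% of all genes at that level. Fewer of the 130 passed among those with few reads: 16 of 44 genes with under 20 reads per library passed, 19 of 29 with 20 to 50 reads, 32 of 41 with 50 to 200 reads and 15 of 16 with more. All genes tested were not counted by these classes, so this is no trait of the 130. Precision was lower than for other genes, with a median standard error of 0.14 for the 130 genes and 0.0685 for all genes tested on the log2 scale. The part of depth in the missing calls was not tested.

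The position of the genes gives the context in which they are read. By the coordinates of the table, 7 of the 130 overlap a protein-coding gene, 4 on the opposite and 3 on the same strand. The nearest protein-coding gene stood head to head with the lincRNA gene in 40 cases, as with Apof and Morc2, and the median distance was 20.1 kb. Within 1 kb and not overlapping lay 17, 12 of them head to head. Where both the lincRNA gene and its nearest protein-coding gene passed, they moved in the same direction in 25 of 35 pairs with orlistat, 10 of 14 at the low dose, 14 of 20 at the medium dose, 15 of 26 at the high dose and 23 of 32 in the obese against the normal control. Over neighbouring protein-coding genes that both passed, 59.5 to 65.7% moved in the same direction in the same comparisons and in the high dose against orlistat. Within 5 kb the same direction was seen in 9 of 16 pairs with orlistat, 5 of 6, 4 of 7 and 6 of 11 at the rising doses, and 8 of 12 in the obese against the normal control. Neighbouring protein-coding genes within 5 kb shared it in 68, 61.6, 63, 62.2 and 65.2% in the same order. The difference between these shares was not tested. Pairs of the 130 genes within 20 kb numbered 8, all on the same strand, among 10 genes. Such pairs, like the AC134224 genes and the pair on chromosome 9, lie close on 1 strand and need not be independent of each other.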

How the data were processed

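Total RNA of 18 rat liver samples was sequenced, 3 libraries in each of 6 groups. The deposited values are FPKM per gene, computed by the authors from their reads. The submitters' processing notes name CASAVA 1.7, Bowtie 0.12.2 and the build mm8, which is a mouse build, while the gene identifiers are those of rat. The sources used here give neither the build of the coordinates nor whether counting used the strand. FPKM times gene length gave whole reads within a tolerance of 0.001, from which the depth of 16.6 to 26.2 M reads was taken.

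The 11945 genes that reached 1 FPKM in 3 or more libraries were tested on log2(FPKM + 1) with limma 3.58.1 (R 4.3.3, trend on the mean level), in 1 fit of the 6 groups with no covariate. Fold changes on this scale understate the change of low genes. P-values were adjusted by Benjamini-Hochberg over all genes tested, with a threshold of 0.05. An exact permutation test of 3 against 3 libraries cannot go below 0.1 and was not used. The script was checked on simulated data. Pairs of libraries in a group differed by more than counting noise, so none was taken as deposited more than once. The excess was modest: the median squared deviation of a pair was 1.45 to 2.62 times that of counting noise. Whether this spread is technical or between animals was not tested.

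Genes were named by a rule. It took the 5 widest rises and falls per pairwise comparison among called genes whose groups do not overlap. It also took the smallest p-values of the trend (3 per direction) and of both F-tests (5 each), and the 10 most abundant genes. The known lncRNA and the 3 genes most like the gene with the smallest F-test p completed it. The text above describes only a part of the genes so named. Left out, for example, was AC125982.2, the widest rise at the high dose against orlistat. AABR07016592.1, the widest rise at the medium dose against the obese control, was left out too. Cyp2c7 and the other protein-coding neighbours, LOC100912578 and AABR07035780.1 were named after their values were seen. The genes, lists and rules were chosen with earlier results of these data known. Sequences are RefSeq promoters of GRCr8, matched by symbol. Alternatives were other pseudocounts, filters and scalings, fits on fewer samples, a replicate block, voom and leaving out each library. One neighbouring gene is not reported here.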

Additional observations from a re-analysis of the deposited data

How the results depend on the processing

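With a filter of 1 FPKM in all 18 libraries, fewer genes could be called by construction: 37 with orlistat, 25 at the medium dose, 34 at the high dose, 36 in the obese against the normal control, 36 in the trend and 44 over the 6 groups. A minimum of 2 FPKM left 72 genes in place of 130, and 13 genes overlapped any other gene in place of the 7 that overlapped a protein-coding one. Leaving out 1 library gave 52 to 64 calls with orlistat, 31 to 38 at the low dose, 37 to 44 at the medium dose, 55 to 63 at the high dose, 56 to 65 in the obese against the normal control, 7 to 12 in the high dose against orlistat, 52 to 64 in the trend, 77 to 84 over the 6 groups and 38 to 46 over the 3 doses.

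Of 6939 values of named genes under the alternatives, 6642 kept their direction and call, 296 lost the call and 1 reversed. Of the 6939, 4734 came from leaving out 1 library, and 4529 of these kept the call and 205 lost it. They include libraries in neither group of a pairwise comparison, whose loss can change little there. Most named genes were chosen for wide changes or small p-values, so a high share kept is partly built in. The reversal was AABR07004549.1 with orlistat after TPM scaling, 0.0153 in place of -0.15, and the cause was not tested. Same-numbered libraries did not deviate together (correlations of -0.0925 to 0.0663), and 4 of 18 libraries correlated best with their own number. With a replicate block 59 genes were called with orlistat, 34 at the low dose, 42 at the medium dose, 60 at the high dose and 63 in the obese against the normal control, and 11 of 263 calls of named genes were lost. Under 20 reads per library, 16 of 44 genes were called over the 6 groups, with no count of all genes at that depth. The part of depth in this was not tested.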
